A study of Homo sapiens with 8 samples.

Results

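TFRC, the transferrin receptor through which cells take up iron, and 9 further genes of cellular iron handling were followed in AGS cells kept with podofilox. AGS is an established cell line from a human gastric adenocarcinoma, and podofilox, also called podophyllotoxin, is a natural product that keeps tubulin from building microtubules. The podofilox group holds 4 arrays from cells kept with 3.4 nM of the drug for 72 hours, and the control group holds 4 arrays from AGS cells without it, all grown in medium with serum and antibiotics. Whether control cells received the solvent, how long they were kept, and whether replicates were separate cultures, is not stated. Errors and p-values therefore cover array-to-array spread alone, and that may be technical. The members were all single-gene probe sets of the 10 listed symbols. Of these, 8 genes had 30 such probe sets, among 18132 genes measured, while FTH1, the ferritin heavy chain, and IREB2, an iron sensor, had none and were not analysed here. TFRC was chosen by its known difference between these groups. The other members were listed for their role in iron handling with results of the arrays known, so the members' values and calls on this contrast are given as a description, and no support is drawn from them. Values are log2 expression, and a difference is podofilox minus control.

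Iron reaches most cells bound to transferrin, which TFRC carries into endosomes, where STEAP3 reduces the iron and the transporter SLC11A2 (DMT1) moves it into the cytosol. Spare iron is stored in ferritin, a shell of heavy (FTH1) and light (FTL) chains, is released when NCOA4 delivers ferritin to lysosomes, leaves the cell only through ferroportin (SLC40A1), and is also set free from heme by HMOX1. The iron regulatory proteins, encoded by ACO1 and IREB2, bind hairpins called iron-responsive elements. When iron is scarce, binding blocks translation of mRNAs that carry the hairpin before the coding region (FTH1, FTL, SLC40A1) and protects TFRC mRNA, which carries it behind the coding region. Dividing cells are known for high TFRC, and TFRC is a textbook target of the transcription factor MYC.

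Of the 10 members, 8 had an entry among the RefSeq promoter windows (GRCh38.p14), which run over the bases before and just after each gene's start, and FTH1 and HMOX1 had none. The sequences shown are the windows upstream of TFRC and SLC40A1, the genes with the largest differences, and the hairpin of FTL, by which the protein is controlled without a change of mRNA. The TFRC bases lie at chr3:196082091-196082340 and the SLC40A1 bases at chr2:189580787-189581036, both on the minus strand, and capitals mark GC boxes (GGGCGG on either strand) and TATAA on the sense strand. The FTL bases lie at chr19:48965337-48965358 on the plus strand, in the part of the mRNA before the coding region, and capitals mark the loop of the hairpin.
TFRC: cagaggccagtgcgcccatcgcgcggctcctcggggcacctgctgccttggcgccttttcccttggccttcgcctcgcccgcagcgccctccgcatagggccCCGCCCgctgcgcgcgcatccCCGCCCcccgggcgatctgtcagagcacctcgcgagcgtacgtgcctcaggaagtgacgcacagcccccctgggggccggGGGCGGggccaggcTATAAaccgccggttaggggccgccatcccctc
SLC40A1: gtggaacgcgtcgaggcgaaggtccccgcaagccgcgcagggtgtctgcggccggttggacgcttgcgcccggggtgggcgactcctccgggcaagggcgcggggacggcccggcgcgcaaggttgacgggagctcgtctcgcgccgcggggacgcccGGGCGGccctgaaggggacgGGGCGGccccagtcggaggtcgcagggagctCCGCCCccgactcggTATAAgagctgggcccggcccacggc
FTL: cttgcttcaaCAGTGTttggac

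Both upstream windows of 250 bases held 3 GC boxes and 1 TATAA. Over all 35116 windows of this length, 42.6% held a GC box and 13.6% held TATAA. The E-box CACGTG, the core site of MYC, was found in 0 of these windows of TFRC and SLC40A1 and in 6.34% of all windows, and the antioxidant response element TGANNNNGC was found in 0 of them and in 35.2% of all windows, each searched on both strands. These are matches of letters in a short window and say nothing of a factor. The iron-responsive hairpin was searched on the sense strand just after the start as the loop CAGTG closed by 5 pairs, G-U pairs allowed, with a C before the stem. It was found after 8 of the 35116 starts (0.0228%), among them those of FTL and of ALAS2, the erythroid enzyme that starts heme synthesis. The start of SLC40A1 was not among them, which says only that this pattern is not in the few bases searched after that start.

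Among the 8 measured genes, the largest differences were in TFRC, at the entry of iron, and SLC40A1, at its exit. TFRC was 1.63-fold lower with podofilox on its brightest probe set, and SLC40A1 was 1.56-fold lower. The light ferritin chain FTL differed by 0.024 or less on every one of its 8 probe sets. Of the 30 member probe sets, 7 were called lower and 1 higher by limma (Benjamini-Hochberg adjusted p under 0.05 over 49293 probe sets), where 10.1% of all probe sets were called lower and 7.67% higher. The podofilox values lay all below the control values for 7 member probe sets and all above for 1, where 13.7% and 10.4% of all probe sets did so. Since this contrast chose TFRC, nothing is read from these counts.

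**Figure D1:**
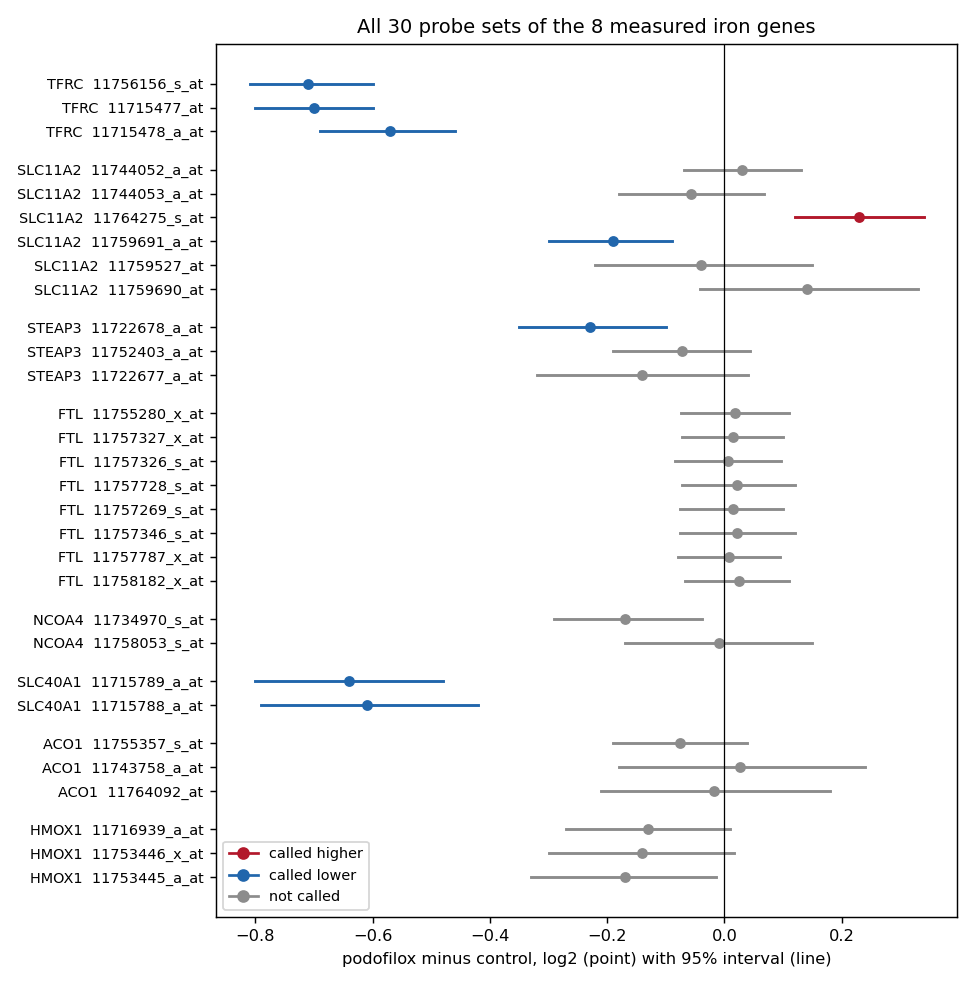
Differences in log2 expression, podofilox minus control, for the 30 probe sets of the 8 measured iron genes (points) with limma's 95% intervals (lines), coloured by call. The TFRC and SLC40A1 probe sets lie between -0.71 and -0.57, the FTL probe sets lie between 0.0061 and 0.024, and the SLC11A2 probe sets fall on both sides of 0.

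Of the uptake genes, TFRC was measured by 3 probe sets. On the brightest, 11756156_s_at, the podofilox arrays 1 to 4 read 9.8, 9.8, 9.77 and 9.75, and the control arrays 10.47, 10.58, 10.4 and 10.5. All podofilox values lay below all control values, and the gap was far wider than the spread within either group. The means were 9.78 ± 0.023 with podofilox and 10.49 ± 0.072 in control cells (SD, n = 4 each), a difference of -0.71 (SE 0.049, 95% interval -0.81 to -0.6). In these bulk samples, fewer cells that make an mRNA and less of it per cell cannot be told apart. The TFRC difference was the 15th largest fall among the 18132 genes, each taken at its brightest probe set.

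The other TFRC probe sets gave nearly the same picture. Probe set 11715477_at read 9.29, 9.4, 9.33 and 9.31 with podofilox and 10.01, 10.07, 9.99 and 10.06 in control cells, a difference of -0.70 (SE 0.046). The dimmer 11715478_a_at read 6.88, 6.84, 7.02 and 6.82 with podofilox and 7.47, 7.47, 7.46 and 7.45 in control cells, a difference of -0.57 (SE 0.052). The groups did not overlap on either, and over the 8 arrays the TFRC probe sets correlated at 0.974 to 0.994, a description that follows the group difference.

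**Figure D2:**
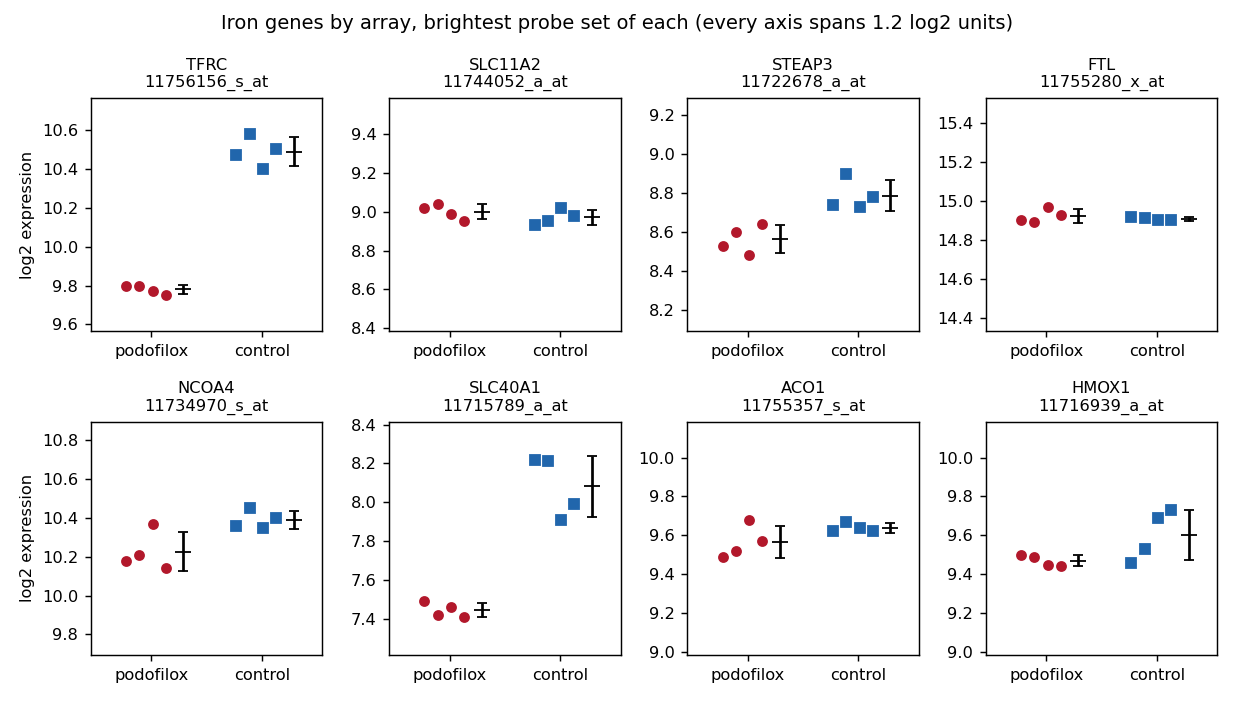
Log2 expression of the 8 measured iron genes on each array, at the brightest probe set of each gene, for podofilox (circles) and control (squares), with the mean and SD of 4 arrays in black. TFRC, SLC40A1 and STEAP3 show no overlap between the groups, and every vertical axis spans the same number of log2 units.

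STEAP3, the endosomal reductase that prepares transferrin iron for transport, was lower by a smaller step. Its brightest probe set, 11722678_a_at, read 8.53, 8.6, 8.48 and 8.64 with podofilox and 8.74, 8.9, 8.73 and 8.78 in control cells. The groups did not overlap, with means of 8.56 ± 0.071 with podofilox and 8.79 ± 0.075 in control cells (SD, n = 4 each) and a difference of -0.23 (SE 0.056, 95% interval -0.35 to -0.1). Its 2 other probe sets overlapped between the groups, with differences of -0.14 (95% interval -0.32 to 0.041) and -0.073 (95% interval -0.19 to 0.043). The call was lost without control array 4, where the difference was still -0.23, with the mean of its probe sets (-0.15), and within each pair of arrays given below.

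SLC11A2, the transporter that passes iron out of the endosome, did not move as 1 gene. Its brightest probe set, 11744052_a_at, averaged 9.0 ± 0.038 with podofilox and 8.97 ± 0.04 in control cells (SD, n = 4 each), a difference of 0.03 (95% interval -0.069 to 0.13). Probe set 11764275_s_at read 7.54, 7.53, 7.52 and 7.46 with podofilox and 7.24, 7.24, 7.38 and 7.26 in control cells, a difference of 0.23 (SE 0.049), and was higher on every podofilox array. Probe set 11759691_a_at read 7.0, 7.0, 7.07 and 7.01 with podofilox and 7.2, 7.2, 7.29 and 7.15 in control cells, a difference of -0.19 (SE 0.047), and was lower on every podofilox array. The gene is known to make mRNAs with several starts and with or without an iron-responsive element, and the RefSeq table lists 4 starts for it. Which mRNA each probe set reads is not given in the sources used here, and 11764275_s_at is of a kind that can bind more than 1 transcript. The other 3 probe sets overlapped between the groups, and 2 of them were dim, at a mean of 3.57 and 3.54 over the 8 arrays.

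Of the storage genes, FTL was among the brightest features of the arrays, with its 8 probe sets ranking 3 to 30 of 49293. On 11755280_x_at it read 14.9, 14.89, 14.97 and 14.93 with podofilox and 14.92, 14.91, 14.9 and 14.9 in control cells. The groups overlapped, and the difference was 0.018 (SE 0.041, 95% interval -0.074 to 0.11). Over the other 7 probe sets the differences ran from 0.0061 to 0.024, and the 8 intervals together spanned -0.085 to 0.12. At this rank the quantile step of RMA can draw the brightest values together, since it gives the probes of every array the same distribution. The part of this step in the FTL values was not tested. The names of all 8 end in _x_at or _s_at, which marks probes shared with other transcripts. The hairpin shown above acts on translation, which arrays of mRNA do not measure.

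NCOA4, the receptor that delivers ferritin to lysosomes, read 10.18, 10.21, 10.37 and 10.14 with podofilox and 10.36, 10.45, 10.35 and 10.4 in control cells on 11734970_s_at. The groups overlapped through podofilox array 3 alone, and the difference was -0.17 (SE 0.057, 95% interval -0.29 to -0.039). It was not called with all arrays and was called without podofilox array 3 (-0.21). The other NCOA4 probe set, 11758053_s_at, showed no such step: it read 8.44, 8.46, 8.76 and 8.48 with podofilox and 8.57, 8.55, 8.55 and 8.51 in control cells, a difference of -0.0099 (95% interval -0.17 to 0.15).

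SLC40A1, ferroportin, the exporter of iron from cells, was lower on both of its probe sets. On 11715789_a_at it read 7.49, 7.42, 7.46 and 7.41 with podofilox and 8.22, 8.21, 7.91 and 7.99 in control cells. The groups lay apart, while control arrays 1 and 2 stood above control arrays 3 and 4. The means were 7.44 ± 0.04 with podofilox and 8.08 ± 0.16 in control cells (SD, n = 4 each), a difference of -0.64 (SE 0.074, 95% interval -0.8 to -0.48). On 11715788_a_at it read 7.19, 7.16, 7.34 and 7.28 with podofilox and 7.93, 8.04, 7.65 and 7.77 in control cells, a difference of -0.61 (SE 0.083), again with control arrays 1 and 2 above control arrays 3 and 4. HAMP, hepcidin, the hormone that removes ferroportin from the membrane, differed by 0.057 (95% interval -0.1 to 0.22), short of the threshold. The name of this HAMP probe set ends in _x_at, and its mean was 9.64 with podofilox and 9.58 in control cells. The other HAMP probe set was much dimmer, at a mean of 5.24 in both groups, and differed by 0.0028.

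ACO1, which encodes an iron regulatory protein that is also the cytosolic aconitase, read 9.49, 9.52, 9.68 and 9.57 with podofilox and 9.62, 9.67, 9.64 and 9.62 in control cells on 11755357_s_at. The groups overlapped, with a difference of -0.075 (95% interval -0.19 to 0.039). Its 2 other probe sets differed by 0.026 (95% interval -0.18 to 0.24) and by -0.018 (95% interval -0.21 to 0.18), and the last was dim, at a mean of 3.73.

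HMOX1, heme oxygenase, which frees iron from heme and is a classic gene of oxidative stress, read 9.5, 9.49, 9.45 and 9.44 with podofilox and 9.46, 9.53, 9.69 and 9.73 in control cells on 11716939_a_at. The groups overlapped, and control arrays 3 and 4 stood above the rest. The difference was -0.13 (SE 0.064, 95% interval -0.27 to 0.01) over all arrays, 0.0018 within arrays 1 and 2 and -0.26 within arrays 3 and 4. Its 2 other probe sets differed by -0.14 and -0.17, again with control arrays 3 and 4 highest.

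The arrays numbered 1 and 2 and those numbered 3 and 4 stood apart on the 18S ribosomal control probe sets, whose mean was 12.01, 12.06, 12.42 and 12.41 on podofilox arrays 1 to 4 and 12.86, 12.92, 12.59 and 12.59 on control arrays 1 to 4. This level was thus lower on every podofilox array, and its part in the differences was not tested. Taken from arrays 1 and 2 alone, the TFRC difference was -0.72, and from arrays 3 and 4 alone it was -0.69. For SLC40A1 these values were -0.76 from arrays 1 and 2 and -0.52 from arrays 3 and 4, and for STEAP3 they were -0.25 from arrays 1 and 2 and -0.2 from arrays 3 and 4. Markers of the labelled cell type were bright, with EPCAM at 12.95 in podofilox and 12.78 in control cells and the keratins KRT8, KRT18 and KRT19 above 13, while the white blood cell gene PTPRC was at 3.49 in podofilox and 3.62 in control cells. Of the markers of other cells, 1 of 5 for white blood cells was higher (CD68, a lysosomal protein that other cells also make), 1 of 4 for endothelial cells was lower (CDH5), and 0 of 5 for fibroblasts and 0 of 2 measured for erythroid cells were called. The log2 summed signal of the white blood cell markers ran from 7.9 to 7.95 with podofilox and 7.59 to 7.81 in control cells. Its part in the results was not tested. CD68, at 7.5 in podofilox and 7.22 in control cells, chiefly sets this sum, as the other white blood cell markers had means of 4.33 or less. For epithelial markers that sum ran from 15.14 to 15.22 with podofilox and from 15.1 to 15.16 in control cells.

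**Figure D3:**
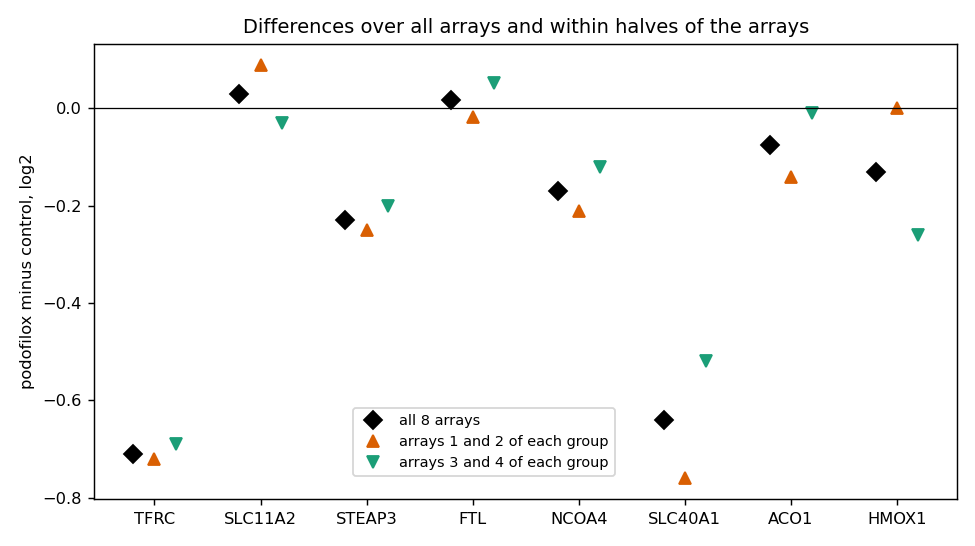
Difference in log2 expression, podofilox minus control, for the brightest probe set of each of the 8 iron genes, over all 8 arrays (diamonds), within arrays 1 and 2 of each group (upward triangles) and within arrays 3 and 4 (downward triangles). TFRC stays between -0.72 and -0.69, while HMOX1 lies at 0.0018 within arrays 1 and 2 and at -0.26 within arrays 3 and 4.

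The genes whose levels ran most like TFRC over the 8 arrays, by Pearson correlation at the brightest probe set of each gene, were CEBPA (0.9985), HNRNPU (0.9966), FBL (0.9966), CHD1L (0.996) and PSMA7 (0.9959). CEBPA encodes a transcription factor of differentiation, HNRNPU an RNA-binding protein of the nucleus, FBL fibrillarin, the methyltransferase of the nucleolus, CHD1L a chromatin remodeller and PSMA7 a subunit of the proteasome. The arrays fall into 2 groups, so these values chiefly follow the group difference. After removal of the group means they ran from 0.74 (CHD1L) to 0.91 (CEBPA and FBL). These genes were picked for the highest correlations on these same arrays, which favours high values here too, so nothing is read from them.

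Around the members, 75 of 82 listed genes of iron, heme, iron-sulfur cluster and NRF2 biology were measured. By limma, 7 rose and 12 fell (adjusted p under 0.05 over all 18132 genes), where 8.55% of all genes rose and 12.5% fell. The shares in the lists were 9.33% for genes that rose and 16% for genes that fell. The median difference was -0.03 in the lists and 0.007 over all genes tested. Of the 56 genes not called at their brightest probe set, 14 had another probe set called, lower for 10 genes and higher for 4, so the counts depend on the probe set taken. The lists were chosen with earlier results of these arrays known.

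**Figure D4:**
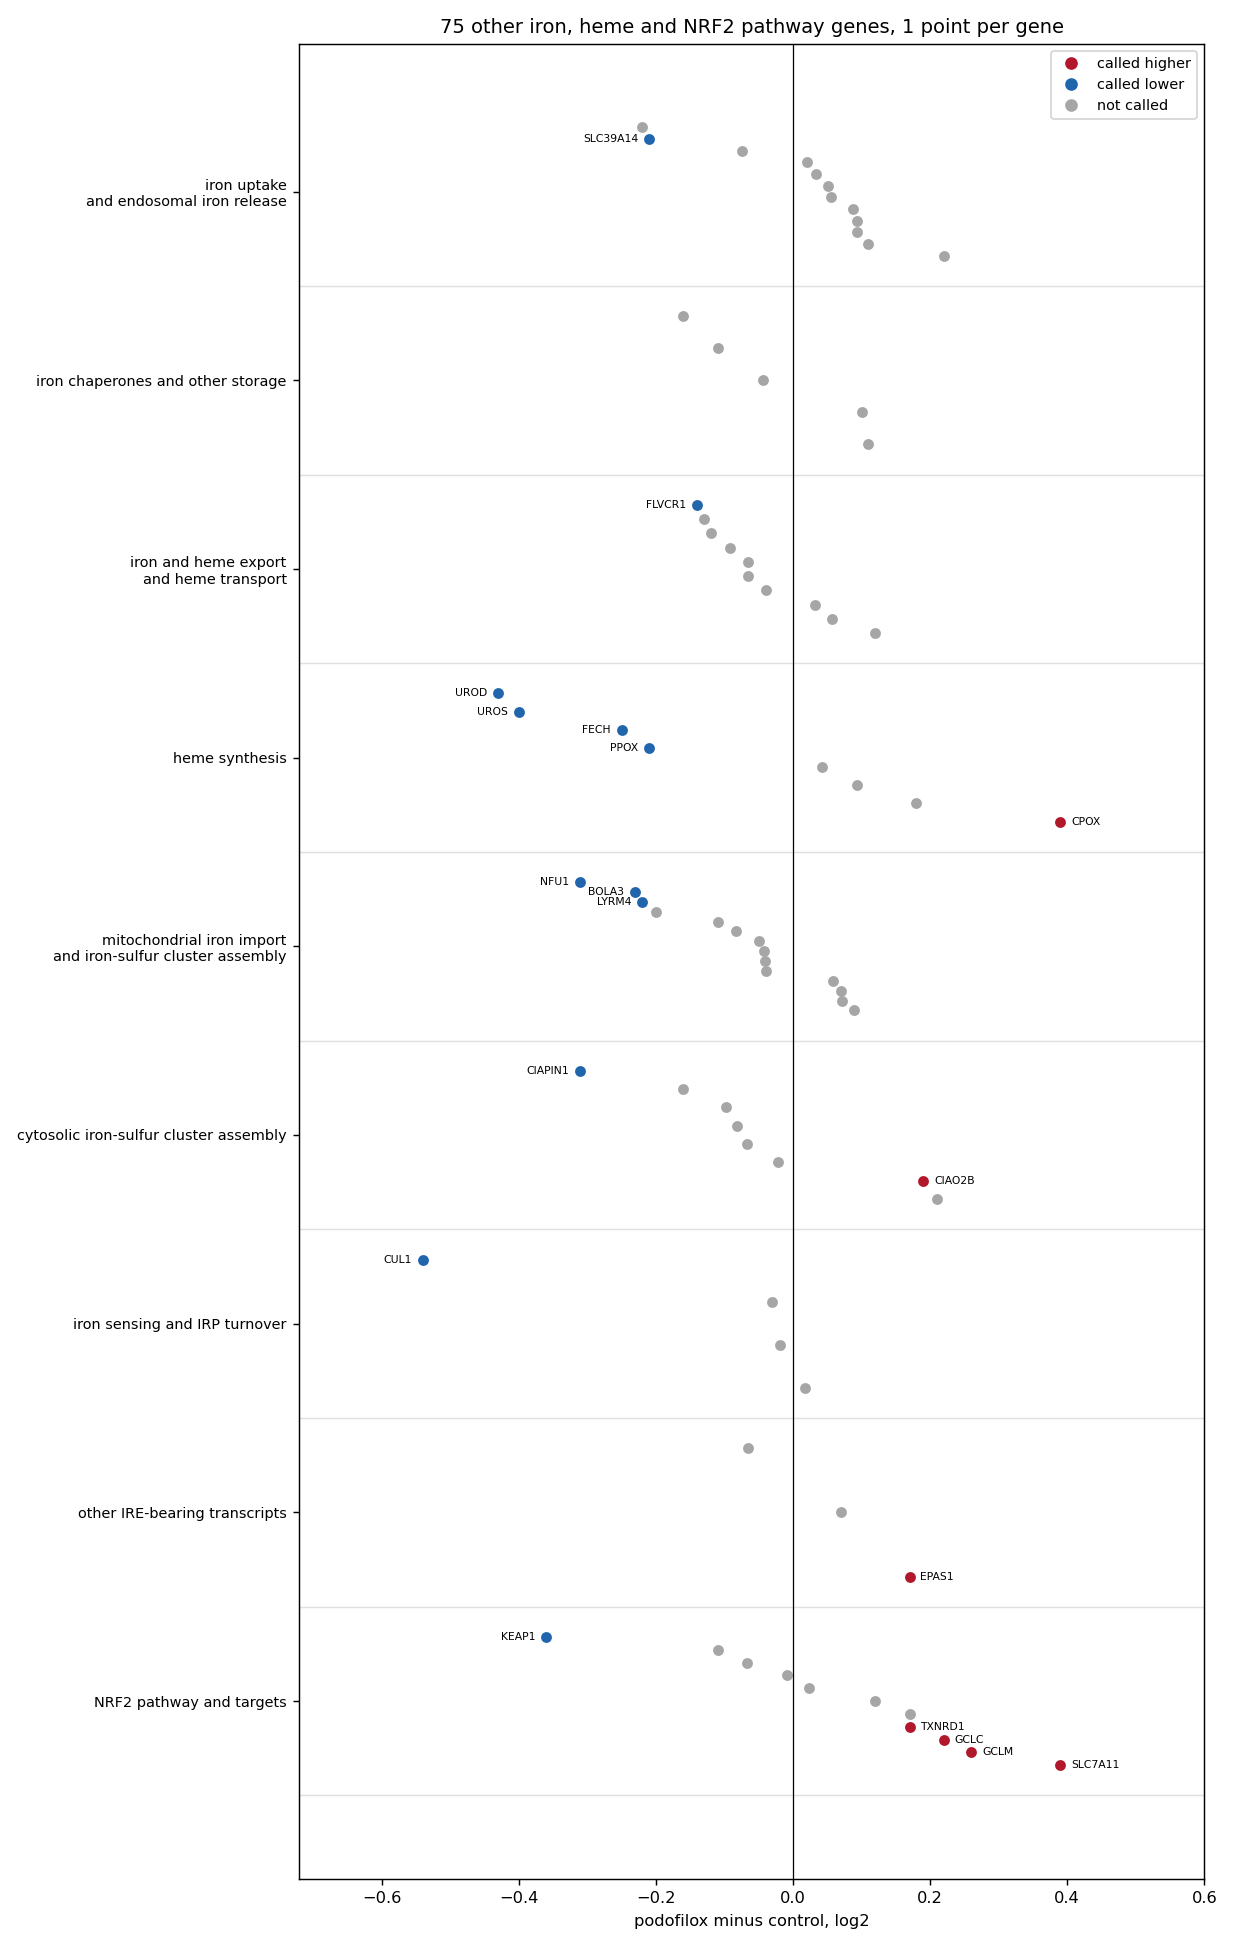
Difference in log2 expression, podofilox minus control, for 75 measured genes of 9 lists, 1 point per gene at its brightest probe set, coloured by limma call, with the called genes named. Heme synthesis has 4 points called lower between -0.43 and -0.21 and CPOX called higher at 0.39, and the NRF2 list has 4 points called higher.

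Heme synthesis, which uses up iron in its last step, held the most calls among the iron lists. Of 8 measured genes, 4 fell and 1 rose, with a median difference of -0.082. UROD and UROS, which make the ring intermediates of heme, fell in step. UROD read 9.73, 9.81, 9.81 and 9.73 with podofilox and 10.18, 10.21, 10.18 and 10.24 in control cells, a difference of -0.43 (SE 0.041, limma adjusted p = 0.000129), and 4 of its other probe sets were also called lower. UROS read 8.32, 8.26, 8.3 and 8.29 with podofilox and 8.72, 8.66, 8.66 and 8.72 in control cells, a difference of -0.40 (SE 0.039, limma adjusted p = 0.000147). The groups lay apart for both. UROS had no other single-gene probe set, and the name of its probe set ends in _x_at. FECH, ferrochelatase, which inserts iron into the ring, averaged 8.2 ± 0.025 with podofilox and 8.45 ± 0.03 in control cells (SD, n = 4 each), a difference of -0.25 (SE 0.039, limma adjusted p = 0.0015). A dimmer FECH probe set was also called lower (-0.21), 2 faint ones were not, and the call was lost with the mean of all of them.

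PPOX, protoporphyrinogen oxidase, fell by 0.21 (SE 0.058, limma adjusted p = 0.0311), a call lost on leaving out any 1 of 5 arrays. The name of this probe set ends in _x_at, and the other PPOX probe sets differed by -0.21 and 0.094, neither called. The PPOX call was also lost without _x_at and _s_at probe sets, with the mean of its probe sets (-0.11) and within each pair of arrays. CPOX, the oxidase that acts just before PPOX, was the gene of the list that rose. On its brightest probe set it read 10.14, 10.3, 10.73 and 10.54 with podofilox and 10.17, 10.16, 9.86 and 9.95 in control cells, a difference of 0.39 (SE 0.12, limma adjusted p = 0.0454). There the groups overlapped on arrays 1 and 2 and lay wide apart on arrays 3 and 4, with differences of 0.057 on arrays 1 and 2 and 0.73 on arrays 3 and 4, and the call was lost on leaving out any 1 of 7 arrays. Its 2 other probe sets were higher on every podofilox array, by 0.35 (SE 0.049) and 0.26 (SE 0.045). Both were called higher in the fit over all probe sets, in which the brightest CPOX probe set was not called. The mean of the CPOX probe sets was 0.34 higher and was called. CPOX is named here after its values were seen. ALAS1, the rate-limiting enzyme outside red cells, differed by 0.093 and ALAD by 0.042, neither past the test.

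Of 14 measured genes of mitochondrial iron import and iron-sulfur cluster assembly, 3 fell and 0 rose by limma, and at an unadjusted p under 0.05 the counts were 4 lower and 0 higher. The share of all genes at that unadjusted threshold is not given, so nothing is read from such counts here or for the lists below. NFU1, a carrier of finished clusters, differed by -0.31 (SE 0.042, limma adjusted p = 0.000728) on its brightest probe set and by -0.32 on its other one. BOLA3, which works beside it, differed by -0.23 (SE 0.045, limma adjusted p = 0.0055). BOLA3 had no other single-gene probe set, and the name of its probe set ends in _s_at. Its call was lost within arrays 1 and 2 and within arrays 3 and 4. LYRM4, a subunit of the complex that draws sulfur for the clusters, differed by -0.22 on its brightest probe set, but by -0.041, -0.018 and -0.0075 on the 3 others, and its call was lost on leaving out any 1 of 5 arrays. The mitoferrins, which bring iron into mitochondria, were not called: SLC25A28 differed by -0.083 and SLC25A37 by 0.071. Of the 4 other SLC25A37 probe sets, however, 2 were called higher, by 0.3 and 0.26. Further genes not called at their brightest probe set had another called lower (ISCA1 -0.39, HSPA9 -0.17, IBA57 -0.17) or higher (ISCU 0.3).

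Of 8 measured genes of the cytosolic cluster machinery, 1 fell and 1 rose. CIAO1 and CIAO3 were not called at their brightest probe sets. Of their other probe sets, 3 of 3 for CIAO1 (-0.21 to -0.16) and 3 of 8 for CIAO3 (-0.29 to -0.2) were called lower. None was called higher. CIAPIN1, an electron donor of that pathway, averaged 9.19 ± 0.058 with podofilox and 9.5 ± 0.047 in control cells (SD, n = 4 each), a difference of -0.31 (SE 0.046, limma adjusted p = 0.00119). In the fit over all probe sets, 3 more of its probe sets were called lower. Its remaining, dimmer probe sets differed by 0.068 and -0.32 and were not called. CIAO2B, a targeting subunit, averaged 11.63 ± 0.017 with podofilox and 11.45 ± 0.016 in control cells (SD, n = 4 each), a difference of 0.19 (SE 0.037, limma adjusted p = 0.00595), with 0.19 on its other probe set. The CIAO2B call was lost within arrays 1 and 2 and within arrays 3 and 4.

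Of 4 genes of the ubiquitin ligase that senses iron and removes iron regulatory proteins, 1 fell and 0 rose by limma, with the same counts at an unadjusted p under 0.05. It was CUL1, the scaffold that this ligase shares with many others. CUL1 read 10.17, 10.23, 10.05 and 10.15 with podofilox and 10.64, 10.74, 10.7 and 10.69 in control cells. The groups lay apart by -0.54 (SE 0.049, limma adjusted p = 9.66e-05), and its other probe set differed by -0.34. FBXL5, the iron-binding subunit that gives the ligase its target, differed by -0.019 (95% interval -0.11 to 0.072) and was not called.

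Of 12 further genes of iron uptake and release, 1 fell and 0 rose by limma, and 2 were lower and 0 higher at an unadjusted p under 0.05. SLC39A14, a carrier of iron not bound to transferrin, averaged 11.59 ± 0.033 with podofilox and 11.81 ± 0.017 in control cells (SD, n = 4 each), a difference of -0.21 (SE 0.039, limma adjusted p = 0.00365), with -0.21, -0.18 and -0.037 on its other probe sets, none of them called. Its call was lost within arrays 1 and 2 and within arrays 3 and 4. Of the genes not called, MCOLN1 (-0.44) and SLC11A1 (-0.31) were called lower on another probe set, and PICALM (0.27) higher. Of 10 genes of iron and heme export and heme transport, 1 fell and 0 rose by limma, and 3 were lower and 1 higher at an unadjusted p under 0.05. This was FLVCR1, a heme and choline transporter (-0.14, limma adjusted p = 0.0485), whose call was lost on leaving out any 1 of the 8 arrays. The list of 5 chaperones and other storage genes had 0 calls by limma, with 1 lower at an unadjusted p under 0.05. PCBP2, an iron chaperone of this list, differed by -0.11 on its brightest probe set, while 4 of its 7 other probe sets were called lower, at -0.38 to -0.19. Of 3 measured genes whose mRNAs are also known to carry an iron-responsive element, EPAS1, a hypoxia-inducible transcription factor, rose by 0.17 (SE 0.051, limma adjusted p = 0.0385), and lost its call on leaving out any 1 of 6 arrays, while its other probe set differed by 0.026. The other genes were not called at their brightest probe sets, but CDC42BPA was called lower on 3 others (-0.36 to -0.22) and CDC14A higher on 1 (0.32).

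HMOX1 is a target of NRF2, the factor of the oxidative stress response (gene NFE2L2), and 11 other genes of that pathway were measured. Of these, 4 rose and 1 fell, with a median difference of 0.124. SLC7A11, the cystine importer, read 10.07, 10.12, 10.09 and 10.02 with podofilox and 9.7, 9.71, 9.65 and 9.67 in control cells, a difference of 0.39 (SE 0.041, limma adjusted p = 0.000197), and its other probe sets differed by 0.33 and -0.00015. GCLM and GCLC, the subunits of the enzyme that starts glutathione synthesis, rose by 0.26 (SE 0.053, limma adjusted p = 0.00711) and 0.22 (SE 0.049, limma adjusted p = 0.0112). The other GCLC probe sets differed by 0.11, 0.081 and -0.055, none of them called. GCLC lost its call with the mean of its probe sets, within arrays 1 and 2 and within arrays 3 and 4. TXNRD1, thioredoxin reductase, named after its value was seen, rose by 0.17 (limma adjusted p = 0.0142), and its 2 other probe sets were called higher too, by 0.25 and 0.23. Its call on the brightest probe set was lost with the replicate block (limma adjusted p = 0.0523) and within each pair of arrays (adjusted p = 0.2 on arrays 1 and 2 and 0.0741 on arrays 3 and 4), and without control array 4 it stood at an adjusted p of 0.049.

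KEAP1, which marks NRF2 for degradation, was the member of this list that fell, at 8.60 ± 0.099 with podofilox and 8.96 ± 0.042 in control cells (SD, n = 4 each), a difference of -0.36 (SE 0.055, limma adjusted p = 0.00138). NFE2L2 differed by -0.11 on its brightest probe set, which was not called, and by -0.17 on its other one, which was called lower. NQO1, a quinone reductase often used to read NRF2 activity, differed by -0.0092 and was not called. HMOX1 thus lay at -0.13 while 4 genes of its pathway list were higher, and the difference between HMOX1 and those genes was not tested.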

How the data were processed

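Total RNA of 8 AGS samples was labelled as biotinylated cRNA and hybridised to Affymetrix arrays, per the labels' protocols. The authors deposited log2 expression values made with RMA, per the submitters' processing notes; the sources used here give no software, version or options, and the log2 scale follows from the range of the values. Of 49395 probe sets, 102 controls were left out and 49293 were tested, of which 44988 named 1 gene in the platform annotation. The number of arrays limits the precision, and dim probe sets carry no detection calls.

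Podofilox minus control was fitted with limma 3.58.1 in R 4.3.3 (lmFit, eBayes, no covariate). A fit over all probe sets described the members and the other probe sets of the listed genes. A separate fit over 18132 genes, each taken at its brightest single-gene probe set, served the lists. Scripts were tested on simulated data. Errors are limma's moderated SE, and a call is an adjusted p under 0.05 (Benjamini-Hochberg, two-sided). Pathway genes are named if they are among the up to 4 called genes of a list with the smallest p. The members and lists were chosen with earlier results of these data known. Alternatives changed the filter, scaling, variance model, weights, block, probe sets and arrays. Promoter windows came from RefSeq (GRCh38.p14). Figures used matplotlib 3.10.9 in Python 3.11.15.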

Additional observations from a re-analysis of the deposited data

Results flagged for a closer look

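Of 60 groups of 4 values (30 probe sets in each of the podofilox and control groups), 5 held a value far from the other 3 by Dixon's test at the 95% level, which chance alone gives for about 5% of groups. Podofilox array 1 stood out at 7.95 on SLC11A2 probe set 11744053_a_at, where the nearest array was at 7.79. Podofilox array 3 stood out at 8.76 on NCOA4 probe set 11758053_s_at, with the nearest at 8.48. Control array 4 stood out at 6.82 on STEAP3 probe set 11722677_a_at, with the nearest at 6.90. On FTL, control array 1 was at 14.82 on 11757346_s_at, with the nearest at 14.78, and control array 2 was at 14.64 on 11757787_x_at, with the nearest at 14.66. None of these probe sets was called, and none is the brightest of its gene.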

How the results depend on the processing

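The count of 7 member probe sets called lower stayed within 1.5 times under every alternative run, from 6 to 8 on leaving out 1 array. The probe set called higher (SLC11A2) was lost without _x_at and _s_at probe sets, which removes it, and within arrays 1 and 2 and within arrays 3 and 4 (0 called each), where each group has 2 arrays. Pathway genes called higher came to 11 with the signal filter, which tests fewer genes, 11 with array weights, 4 with the replicate block and 1 within arrays 1 and 2, against 7. Pathway genes called lower came to 4 within arrays 1 and 2 and 7 within arrays 3 and 4, against 12, and the cause was not tested beyond the fewer arrays. That count was 18 with the signal filter, 17 with the intensity trend and robust estimation, and 15 with the mean of probe sets. It was 9 without _x_at and _s_at probe sets. Differences near 0 changed sign for ACO1 without _x_at and _s_at probe sets (0.026), FTL on quantile normalization once more and within arrays 1 and 2 (-0.017 each), HMOX1 within arrays 1 and 2 (0.0018) and SLC11A2 within arrays 3 and 4 (-0.03). NCOA4, not called, was called with the signal filter, repeated quantile normalization, the intensity trend with robust estimation, array weights, or without podofilox array 3, and HMOX1 within arrays 3 and 4. Arrays of the same number did not deviate together (correlations of -0.25 to 0.041). Whether the replicate numbers pair the samples is not stated, and these few correlations cannot settle it. The block left 7 member probe sets called lower.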
